A study of Fragaria x ananassa with 3 samples.

Results

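Among the small RNAs listed for strawberry fruit, 155 names were new candidate miRNAs of 24 nt that began with adenine and had at least 50 raw reads in at least 1 of 2 libraries. They were taken from 516 candidates of 24 nt with adenine first, 862 candidates of 24 nt and 1225 candidates of any length. The whole table holds 1310 names, of which 85 are known miRNAs. The fruits were of the cultivar Zhangji (Fragaria x ananassa), picked at commercial maturity, chosen for even size and absence of injury, and kept at 20 °C and about 85% relative humidity. One small RNA library was made at 0 h of storage and 1 after 24 h, so the storage times can be set side by side but not tested across fruits. One degradome library, which reads the 5′ ends of cleaved mRNA, was made from a mixture of the fruit. The sources used here do not say how many fruits went into each library.

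In plants, most miRNAs are cut from a hairpin by DICER-LIKE enzymes into a pair of strands, the 5p and the 3p arm, and direct the cleavage of an mRNA. Small RNAs of 24 nt are known mostly from another route. In Arabidopsis they are cut from double-stranded RNA, are loaded into Argonaute proteins of the AGO4 type that prefer adenine at the 5′ end, and guide DNA methylation at repeats and transposons. Length, first base and read level were part of the choice of these 155 names, and the Argonaute that held them was not measured.

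The 10 members with the most raw reads are printed first because they hold 26.9% of the raw reads of all 155. Sequences run 5′ to 3′ as in the deposited table, in DNA letters, and capitals mark bases 2 to 8, the stretch called the seed in miRNAs.
PC-5p-8857_406: aGACGATTggactgttcacggctt
PC-3p-4296_805: aGACGATCggatgactcacggctt
PC-3p-6978_511: aGACGATCggacggttcacggctt
PC-5p-17917_203: aTCGGACGgctcacggcttaatgt
PC-3p-19887_182: aGCCGTGAaccgtccgatcgtctt
PC-3p-5545_638: aCTGAACGgtagagatgtgaaaat
PC-3p-5498_643: aAACGATCggacggctcacggctt
PC-3p-5958_596: aGATGATCggacggttcacggctt
PC-3p-15640_232: aAGACGATcagacgactcacggct
PC-3p-12844_281: aGACGATCgaacggctcacggctt
All of these but PC-3p-5545_638 belong to 1 family of near-identical sequences. PC-3p-4296_805, PC-3p-6978_511 and PC-3p-12844_281 share GACGATC at bases 2 to 8, which 9 of the 155 members carry. Over all members there were 105 different stretches at bases 2 to 8. Of these, 23 were held by at least 2 members, which accounts for 73 members. After it came 3 stretches with 6 members each. One of these is AACGATC, that of PC-3p-5498_643. Another is GCCGTGA, that of PC-3p-19887_182.

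Most members came in families. All 155 sequences differ, but members were placed in 1 sequence group where they matched another member with at most 3 mismatches over at least 18 overlapping bases, on either strand. By this rule 123 of the 155 (79.4%) had a relative in the set, and 32 had none. Groups of at least 3 numbered 9 and held 113 members, and 5 further groups held 2 members each. The nearest relative differed by 0 mismatches over the overlap for 47 members, by 1 for 37, by 2 for 31 and by 3 for 8. No member was within 3 mismatches of a known miRNA of the table.

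The group led by PC-5p-8857_406 has 71 members and 65.7% of the raw reads of the set. The letters TCACGGCTT recur in it, and the following members show them in shifted registers and on both strands. Capitals mark TCACGGCTT or its reverse complement AAGCCGTGA.
PC-3p-6978_511: agacgatcggacggtTCACGGCTT
PC-3p-4594_757: agacgatcggacggcTCACGGCTT
PC-5p-17917_203: atcggacggcTCACGGCTTaatgt
PC-5p-70204_51: acatcAAGCCGTGAgtcgtccgat
PC-5p-96545_37: acatcAAGCCGTGAgtcgtctgat
PC-5p-92138_39: atcAAGCCGTGAgccgtctgatcg
Of the 71 members, 46 ran in the direction of PC-3p-6978_511 and 25 in the opposite one. TCACGGCTT was held by 31 of the 155 members (20.0%), 28 of them on the listed strand, against 5.68% of all 24 nt candidates.

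A second set of letters, TTCGTCGGC, occurred in 8 members, which are shown whole because all 8 had more normalized reads at 24 h. For some of the 8, more raw reads at 24 h follow from the choice of the set, as given below. They fall in the sequence groups led by PC-5p-5478_644 and PC-5p-62513_57, apart from PC-3p-5955_596 and PC-5p-41727_86, which have no near relative in the set. Capitals mark the shared letters.
PC-5p-5478_644: acgttagggtaTTCGTCGGCtaaa
PC-3p-5955_596: accctaacgtaTTCGTCGGCtata
PC-5p-62513_57: attacagtgtatTTCGTCGGCtaa
PC-3p-41761_86: atattaggttatTTCGTCGGCtaa
PC-3p-22878_158: atagtatatTTCGTCGGCtaaagt
PC-3p-37355_96: aatattttatatTTCGTCGGCtaa
PC-5p-41727_86: aaaaaagccttaaTTCGTCGGCca
PC-3p-32705_110: aacattaggttaTTCGTCGGCtaa
These letters were about as frequent among the members (5.16%) as among all 24 nt candidates (5.57%).

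The next sequences come from the groups led by PC-3p-4413_785 and PC-3p-49619_72, whose members mostly had fewer normalized reads at 24 h, and from the group led by PC-5p-27053_133, whose members went both ways. Capitals mark AATTGACGGA in the first 4, ATGGACGG in the following 3 and TGAACGGTT in the last 3.
PC-3p-4413_785: aatttaactgagaaAATTGACGGA
PC-3p-148688_24: attttaactgagaaAATTGACGGA
PC-3p-11065_324: aactgagaaAATTGACGGAatgac
PC-3p-88735_40: actgagaaAATTGACGGAatgacc
PC-3p-29513_122: ATGGACGGtggagATGGACGGatg
PC-3p-170046_21: ATGGACGGcgtaaATGGACGGgtg
PC-3p-69369_51: aaaatggacaacggagATGGACGG
PC-5p-27053_133: agacttttgaaTGAACGGTTagat
PC-5p-55484_64: agacttttaaaTGAACGGTTggat
PC-5p-38983_92: aggactttcgaaTGAACGGTTgga
AATTGACGGA stood in 10 members (6.45%) against 3.60% of 24 nt candidates, TGAACGGTT in 6 (3.87% against 1.51%) and ATGGACGG in 4 (2.58% against 2.90%). A closer comparison is the 74 candidates of 24 nt with another first base and at least 50 raw reads. There the shares were 13.5%, 4.05% and 8.11%, each above that of the members. TCACGGCTT and TTCGTCGGC had shares of 2.70% and 5.41% there. The 5 sets of letters were chosen after the sequences and their folds had been seen and were searched on both strands. They occurred in 59 members, and no member held more than 1 of them. A match describes the sequence only.

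Members varied in composition and ended in T more often than in any other base. Their GC content ran from 25% to 75%, with a median of 50%. The last base was T in 83 members (53.5%), against 42.2% of all 24 nt candidates. The last base was A in 35 members, G in 20 and C in 17.

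The level of most members was modest, and 1 family led. The raw reads of all listed names sum to 3006293 at 0 h and to 2998588 after 24 h. The 155 members hold 22857 of these at 0 h, or 0.760% (95% Clopper-Pearson interval 0.751 to 0.770%), and 23583 at 24 h, or 0.786% (0.777 to 0.797%). They make up 43.0% and 40.2% of the raw reads of 24 nt candidates, and 5.27% and 4.17% of those of all candidates. At 0 h the lowest, median and highest member had 24, 82 and 952 raw reads, and at 24 h 31, 82 and 961. At least 100 raw reads were reached by 67 members at 0 h and 62 at 24 h, and at least 500 by 7 and 8. All intervals given here cover counting error in these libraries and say nothing of how fruits or repeated libraries vary.

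PC-5p-8857_406 was the most abundant member, with 952 raw reads in the 0 h library against 961 in the 24 h library. PC-3p-4296_805 followed with 892 and 828, and PC-3p-6978_511 with 650 and 651. The 3 differ from each other at few positions and end in the same bases, and their order was the same in both libraries. PC-5p-17917_203, which is shifted along the same stretch, had 613 and 642 raw reads. PC-3p-19887_182, from the opposite strand, had 636 and 618. PC-3p-5545_638, the only one of the 10 without a near relative in the set, had 567 and 589. The other 4 of the 10 lay close together. PC-3p-5498_643 had 508 and 509 raw reads, PC-3p-5958_596 had 448 and 536, PC-3p-15640_232 had 477 and 488, and PC-3p-12844_281 had 455 and 475.

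At the threshold of the choice, 123 members had at least 50 raw reads in both libraries, 12 only at 0 h and 20 only at 24 h. Just inside were PC-3p-89541_40 (50 at 0 h, 45 at 24 h), PC-5p-53697_67 (50, 37), PC-5p-73299_48 (36, 50) and PC-5p-80571_44 (50, 47). Just outside were PC-5p-118772_30 (41, 49) and PC-5p-56094_64 (49, 44). The reads at the edge are a few counts apart, so membership there lies within counting error.

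Between 0 h and 24 h of storage the members stayed close to their starting level. Folds divide the normalized reads of a name after 24 h by those before storage. The authors' normalized reads are close to raw reads times 1 factor per library, 0.917 for 0 h and 0.846 for 24 h. The summed normalized reads of the members were 0.953 times as high at 24 h (counting interval 0.935 to 0.970), and the median log2 fold was -0.061, with 60 members above 0, 93 below and 2 at 0. This direction depends on the scaling: with raw reads the summed fold was 1.03 (1.01 to 1.05) and the median 0.050, and with scaling by the total of listed names they were 1.03 (1.02 to 1.05) and 0.053. These 2 scalings raise every log2 fold by 0.115 and 0.119. In all, 145 members (93.5%) lay within 1.5-fold. Of the 74 equally abundant 24 nt candidates with another first base, 64 (86.5%) did so, and of the remaining 180 names with at least 50 raw reads, 135 (75.0%). The quartiles of log2 fold were -0.24 and 0.14 for the members, -0.29 and 0.30 for the 24 nt candidates with another first base, and -0.22 and 0.42 for the remaining names. The median raw reads over both libraries were 165, 149 and 275.5 in these 3 sets, and their part in the spread was not tested.

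**Figure D1:**
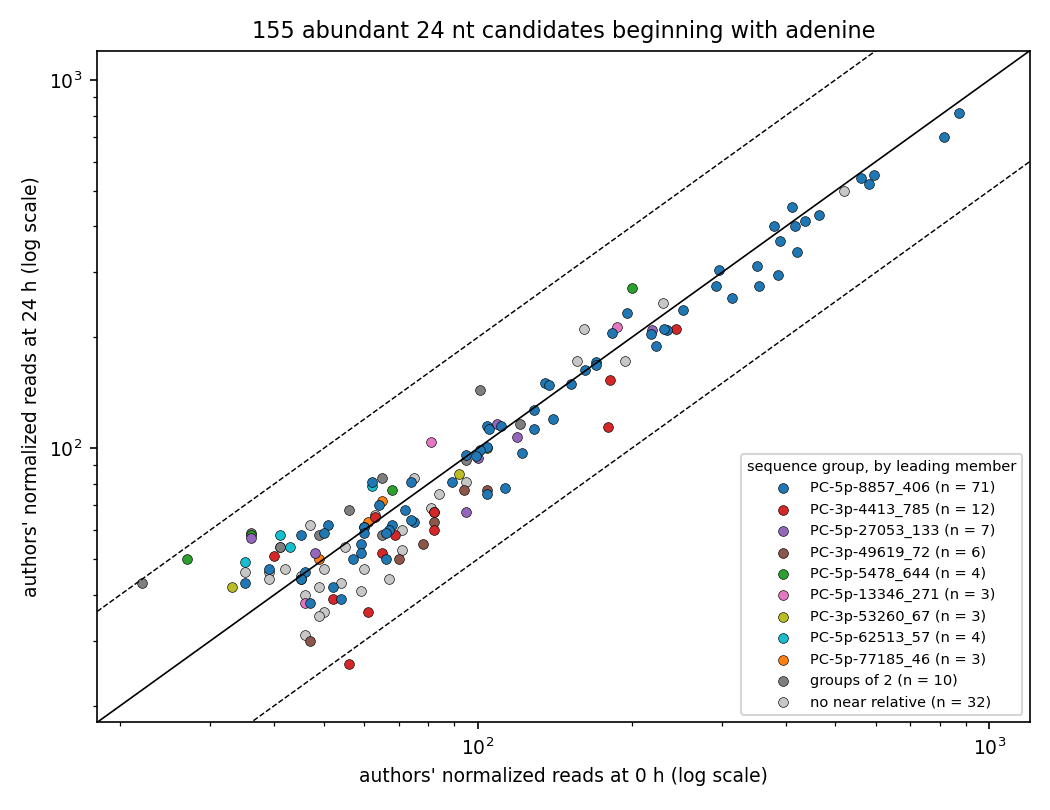
Normalized reads of the 155 members at 0 h (x axis) and 24 h (y axis), both on log scales, coloured by sequence group. The solid line marks equal levels and the dashed lines 2-fold. Points lie along the line of equal levels, those of the group led by PC-5p-8857_406 reach the highest levels, and only PC-3p-148688_24, at 56 and 26, lies beyond a dashed line.

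**Figure D2:**
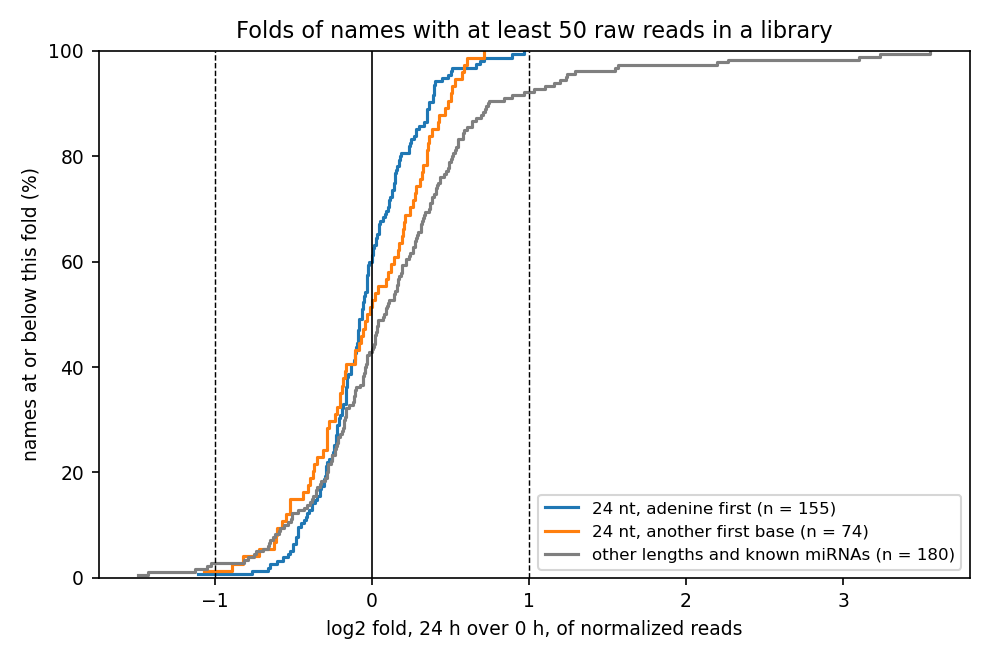
Share of names (%) at or below each log2 fold of normalized reads, 24 h over 0 h, for the 155 members, the 74 abundant 24 nt candidates with another first base and the other 180 names with at least 50 raw reads. Dashed lines mark 2-fold, and the curve of the members is the steepest, with 93.5% within 1.5-fold.

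On the authors' normalized reads no member was more than 2-fold higher at 24 h and 1 was more than 2-fold lower, whereas 6.25% of the 1248 names with at least 10 raw reads were more than 2-fold higher and 3.69% more than 2-fold lower. With raw reads or scaling by the total of listed names the calls were others: PC-3p-168882_21 and PC-3p-32705_110 were past 2-fold higher, and no member was past 2-fold lower. Among the 409 names with at least 50 raw reads, 5.13% were past 2-fold in either direction. The 74 candidates of 24 nt with another first base were like the members, with 0 higher and 1 lower. The remaining 180 names had 14 higher and 5 lower. The 1 member past the threshold on normalized reads was PC-3p-148688_24, with 61 and 31 raw reads and 56 and 26 normalized reads, a log2 fold of -1.11 and a fold of 0.464 (0.294 to 0.734). Its interval reaches above 0.5, and its log2 fold was -0.98 with raw reads and -0.97 with scaling by the total of listed names. The counting interval lay wholly above 1 for 8 members (5.16%) and wholly below 1 for 14 (9.03%). The same held for 19.3% and 15.9% of the 409 names with at least 50 raw reads, and for 16.2% and 13.5% of the 74 candidates of 24 nt with another first base. With raw reads or scaling by the total of listed names the members' counts turned to 18 above and 6 below, beside 25.2% and 11.0% of the 409 names. Among those 74, the summed reads were 1.14 times as high at 24 h (1.12 to 1.16), with a median log2 fold of -0.02. Most of these reads belong to 1 name, PC-3p-391_7887, with a log2 fold of 0.32, so the sum speaks mainly for that name. By name, 35 were above 0 and 38 below. Candidates of 24 nt with adenine first and 10 to 49 raw reads, 335 in number, had a median of -0.09, near that of the members.

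The highest folds were those of members with few reads at 0 h. PC-3p-168882_21 had 24 raw reads before storage and 51 after it, a fold of 1.95 (1.19 to 3.33). PC-3p-32705_110 had 29 and 59, a fold of 1.85 (1.18 to 3.04). PC-3p-43297_83 had 39 and 70, a fold of 1.64 (1.10 to 2.52). Each of these 3 has a relative in the set that differs less between the libraries or has more reads. PC-5p-21916_165, which differs from PC-3p-168882_21 by 1 base, had 104 and 110 raw reads, a log2 fold of -0.03. PC-3p-38314_94, the relative of PC-3p-43297_83, had 111 and 171, a fold of 1.43 (1.11 to 1.82). Next were PC-3p-57887_62 (39 and 69 raw reads) and PC-5p-38983_92 (40 and 68), with folds of 1.61 and 1.58.

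The lowest folds came mostly from the group with AATTGACGGA. After PC-3p-148688_24 they were PC-3p-88735_40 with 67 and 43 raw reads, a fold of 0.590 (0.394 to 0.882), and PC-3p-11065_324 with 196 and 135, a fold of 0.633 (0.507 to 0.796). These 3 are members of 1 sequence group. PC-3p-29513_122 had 51 and 35 raw reads, a fold of 0.638 (0.400 to 0.993). PC-3p-29767_121, which has no near relative in the set, had 74 and 52, a fold of 0.657 (0.446 to 0.937). The intervals of PC-3p-29513_122 and PC-3p-29767_121 held 1 with raw reads. PC-3p-148688_24, PC-3p-88735_40 and PC-3p-29513_122 were in the set only through 0 h, so the choice favours their low folds. Among the 10 most abundant members PC-3p-4296_805 had a fold of 0.857 (0.779 to 0.943), which with raw reads was 0.928 (0.843 to 1.02). PC-5p-8857_406 had a fold of 0.931 (0.851 to 1.02), which turned to 1.01 with raw reads. PC-3p-5958_596 had 1.10 (0.972 to 1.26), and 1.20 (1.05 to 1.36) with raw reads.

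**Figure D3:**
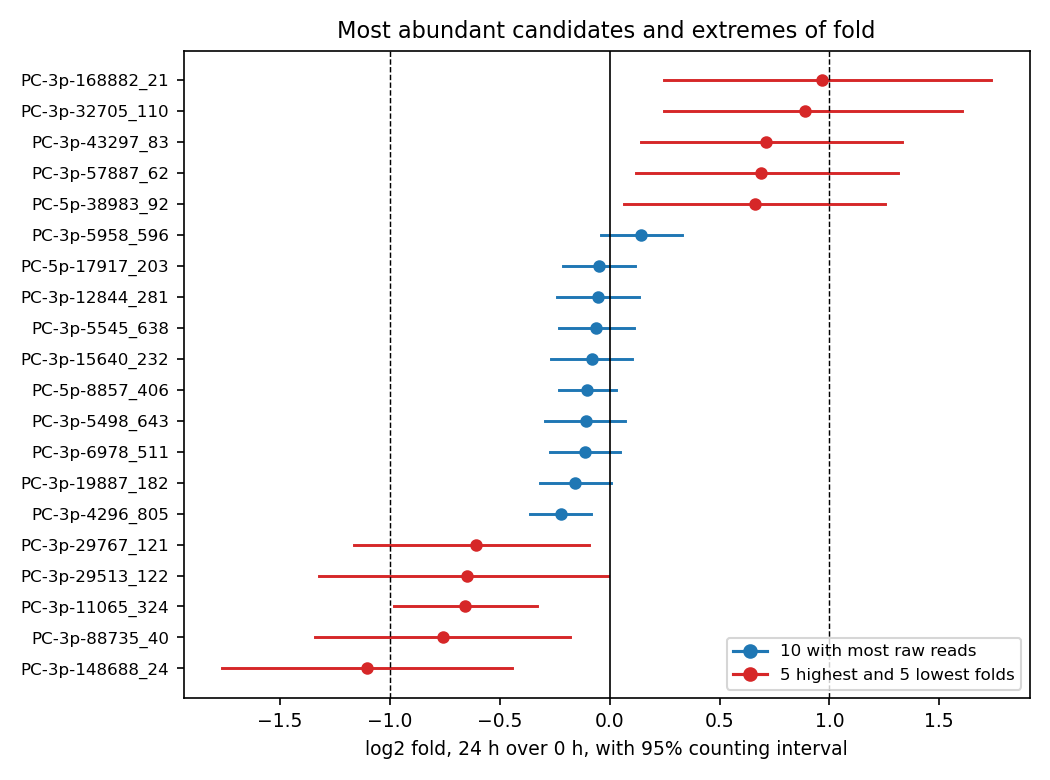
Log2 fold of normalized reads, 24 h over 0 h (x axis), for the 10 members with the most raw reads and the 5 highest and 5 lowest folds, with 95% counting intervals as bars. Dashed lines mark 2-fold. The abundant members lie near 0 with narrow bars, and the extremes, from -1.11 to 0.97, carry wide ones.

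The sequence groups differed in the side of 0 on which their members lay. The group led by PC-5p-8857_406 had 15143 raw reads before and 15378 after storage, a fold of its summed normalized reads of 0.938 (0.917 to 0.959). Its 71 members ran from -0.53 to 0.39 on the log2 scale, with 23 above 0, 47 below and 1 at 0, and the median was -0.08. With raw reads or with scaling by the total of listed names the same group had 44 members above 0 and 27 below, so that its direction is not set by these data. The 46 members in the direction of PC-3p-6978_511 and the 25 in the opposite one had like folds, 0.937 (0.914 to 0.960) and 0.944 (0.893 to 0.994), both of which turned above 1 under these scalings.

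The group led by PC-3p-4413_785, all 12 of 3p arms, was lower at 24 h. Its raw reads were 1283 before and 1104 after storage, a fold of 0.793 (0.732 to 0.862), with 2 members above 0 and 10 below and a median log2 fold of -0.31. Its leading member had 267 and 249 raw reads, a fold of 0.865 (0.721 to 1.03). The group led by PC-3p-49619_72, all 6 of 3p arms, had 519 and 417 raw reads, a fold of 0.741 (0.650 to 0.845), with all 6 members below 0. PC-3p-49619_72 itself had 114 and 91 raw reads. Both groups had the same counts of members above and below 0 under each of the 5 other scalings tried.

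Members with TTCGTCGGC were higher at 24 h. PC-5p-5478_644, the most abundant of them, had 218 raw reads before and 323 after storage, a fold of 1.37 (1.15 to 1.63). PC-3p-5955_596 had 176 and 249, a fold of 1.31 (1.07 to 1.59). The other 6 ran from 29 to 68 raw reads at 0 h and from 52 to 94 at 24 h, and each had more at 24 h. Summed, the 8 had 664 and 967 raw reads, a fold of 1.35 (1.22 to 1.49), with a median log2 fold of 0.42. The sequence group led by PC-5p-5478_644 (4 members) had a fold of 1.38 (1.21 to 1.59) and that led by PC-5p-62513_57 (4 members) of 1.33 (1.10 to 1.60). All members of both groups were above 0 also under each of the 5 other scalings. Both groups hold names that were in the set only through 24 h, so this agreement follows in part from the choice. The leader PC-5p-62513_57 had 68 and 94 raw reads.

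The same letters can be followed in names outside the set, which were not chosen by first base, length or reads above 50. Of 62 other names with TTCGTCGGC and at least 10 raw reads, 44 were above 0 and 15 below, with a median log2 fold of 0.25 and a fold of the sum of 1.19 (1.12 to 1.26). Of 27 other names with AATTGACGGA, 4 were above and 22 below, with a median of -0.28 and a fold of 0.846 (0.803 to 0.895), beside 1 above and 9 below and a median of -0.34 for the 10 members. Of 27 other names with ATGGACGG, 8 were above and 16 below, with a median of -0.11, which is within the shift between scalings, beside 4 members that were all below, with a median of -0.44. These names share libraries with the members, and many overlap them in sequence, so they add no independent measurement.

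The remaining groups of at least 3 had counting intervals that held 1 on normalized reads. The group led by PC-5p-27053_133, 7 members on 5p arms, had a fold of 0.968 (0.878 to 1.07), with members from -0.50 to 0.66 on the log2 scale. PC-5p-27053_133 had 239 and 248 raw reads. The group led by PC-5p-13346_271 (204 and 252 raw reads for the leader) had a fold of 1.13 (0.981 to 1.31), and of 1.23 (1.06 to 1.42) with raw reads. The groups led by PC-3p-53260_67 (114 and 118 raw reads) and PC-5p-77185_46 (71 and 85) had folds of 0.991 (0.833 to 1.18) and 1.06 (0.868 to 1.29). Under raw reads with no scaling and under scaling by the total of listed names, the groups led by PC-5p-27053_133 and PC-3p-53260_67 had medians above 0. The 10 members in groups of 2 had a fold of 1.19 (1.08 to 1.31), with 7 above 0. They include PC-3p-168882_21, which was in the set only through 24 h. The 32 members without near relative had 0.965 (0.917 to 1.01), which turned to 1.04 (0.994 to 1.10) with raw reads.

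**Figure D4:**
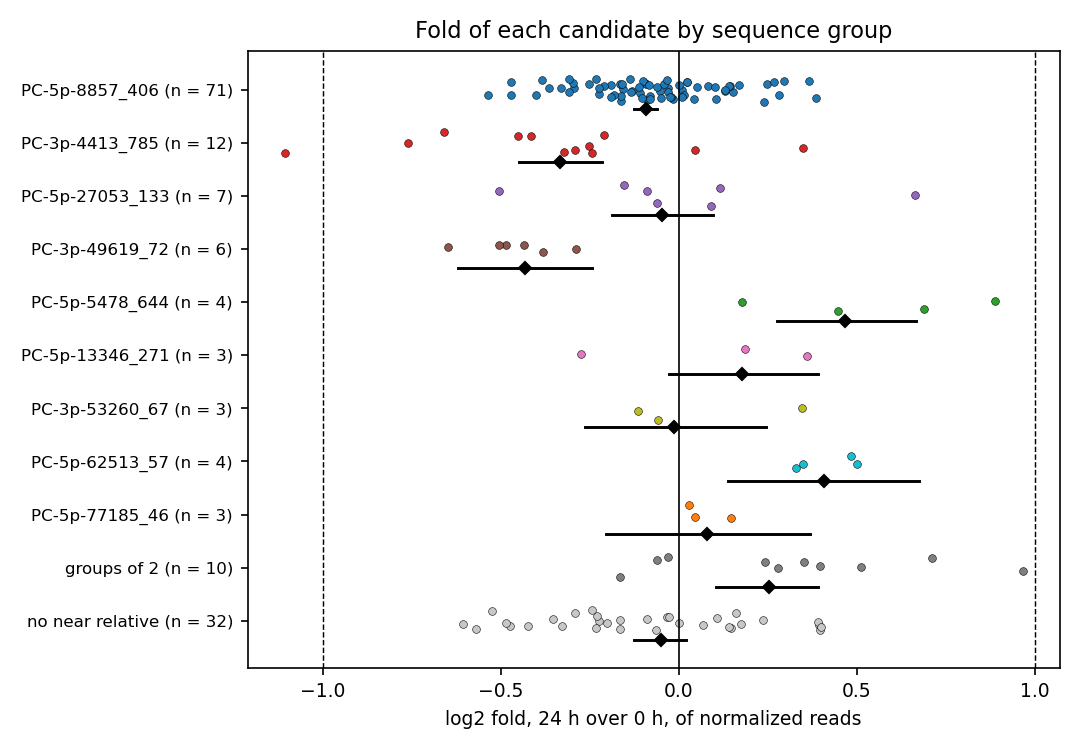
Log2 fold of normalized reads, 24 h over 0 h (x axis), of each member (points), by sequence group (rows, named by the leading member, with vertical scatter only for clarity). Diamonds and bars give the fold of the group's summed reads with its 95% counting interval, and dashed lines mark 2-fold. All points of the groups led by PC-5p-5478_644 and PC-5p-62513_57 lie above 0 and all 6 of the group led by PC-3p-49619_72 below. Some of these names were in the set only through the library where they were higher.

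Near-identical names may not be independent counts. The sources used here do not say how a read that matches several names was assigned. The number at the end of each name was smaller than the raw reads of that name over both libraries for 138 of the 155 members, and what that number counts is likewise not stated. Sums over a group and their intervals assume that each read was counted under 1 name.

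Members lay on both arms of their pre-miRNAs, more often on the 3p arm. By their names 96 were 3p (61.9%) and 59 were 5p, where 54.9% of all 24 nt candidates were 3p. The summed reads of the 3p members had a fold of 0.933 (0.912 to 0.954) and those of the 5p members of 0.996 (0.964 to 1.03). With raw reads these became 1.01 (0.988 to 1.03) and 1.08 (1.04 to 1.11), so the direction of neither arm is set by these data. A member had 1 precursor in 136 cases and 2 precursors in 19. Members with 1 precursor had a fold of 0.960 (0.941 to 0.979) and those with 2 of 0.905 (0.860 to 0.951). With raw reads these became 1.04 (1.02 to 1.06) and 0.980 (0.932 to 1.03).

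Precursors of members often carried a name on each arm. Of the 153 precursors with a member, 66 (43.1%) had both arms listed, against 111 of 1004 other candidate precursors (11.1%). Members had to have many reads and the other precursors did not, and the part of read depth in this difference was not tested. In all, 80 members had a listed partner. In 21 precursors both arms belonged to the set, and in 18 of these 21 the 3p arm had more raw reads. In the other 45 precursors the partner had from 13 to 626 raw reads over both libraries, with a median of 55. Fewer reads than the member were found for 41 partners. Every member had to reach 50 raw reads in a library and only 10 of the 45 partners did, so this count follows largely from the choice. Of these 45 partners, 34 were also of 24 nt. Adenine began 21 of them, C 9, G 9 and T 6, and 18 met the length and first base of the set but not its 50 reads.

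The most-read precursor with both arms in the set carried PC-3p-4296_805 (892 and 828 raw reads) and PC-5p-34093_106 (114 and 89). Both arms had fewer normalized reads at 24 h, with log2 folds of -0.22 and -0.47. PC-3p-6978_511 (650 and 651) had the partner PC-5p-218814_17 (64 and 62), and PC-3p-5498_643 (508 and 509) the partner PC-5p-70035_51 (113 and 119). In all of these the 3p arm was the stronger in both libraries. PC-3p-15640_232 (477 and 488) stood beside PC-5p-107908_33 (75 and 74). PC-3p-4594_757 (459 and 405) has 2 precursors. On 1 of them the partner listed was PC-5p-99180_36 (151 and 175), and the 2 names differed in sign, with log2 folds of -0.30 and 0.10. They paired at only 13 of 22 bases. The study's hairpin list puts PC-5p-99180_36 in another window, scf0513190:2369433-2369696. It puts PC-3p-4594_757 in scf0512969:567638-567901 and scf0513173:1128692-1128955. The 2 listings thus conflict on whether these names are arms of 1 hairpin.

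**Figure D5:**
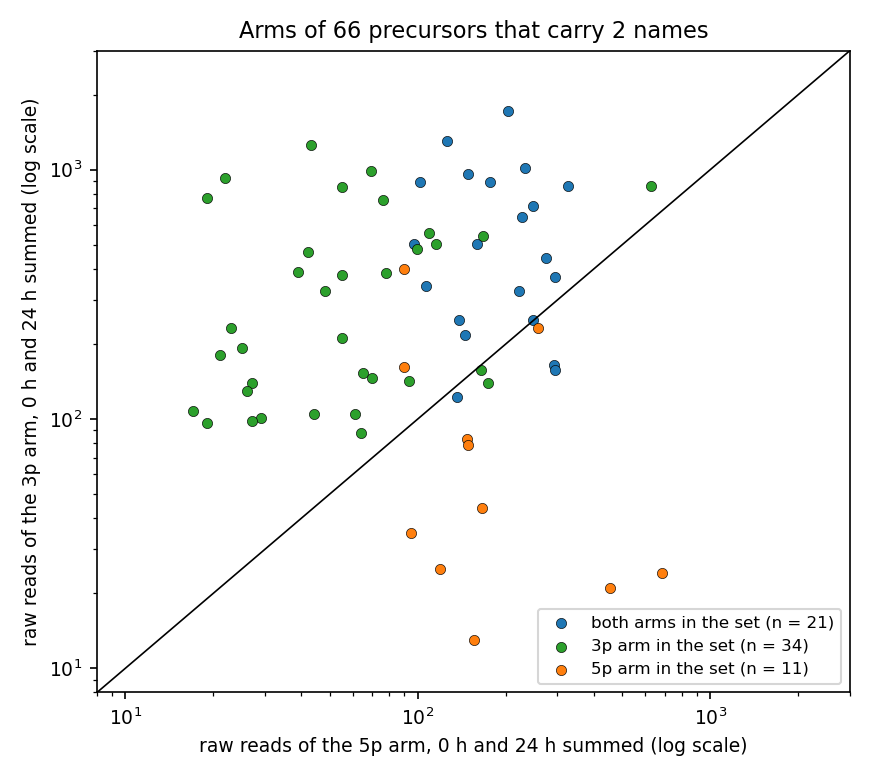
Raw reads of the 5p arm (x axis) and the 3p arm (y axis), summed over 0 h and 24 h, for the 66 precursors with 2 names, on log scales. Colours show which arm belongs to the set and the line marks equal reads. Of the 21 precursors with both arms in the set, 18 lie above the line.

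The arms were compared as a duplex. In 30 of the 66 pairs at least 80% of the bases were paired over at least 18 bases. PC-5p-70035_51 and PC-3p-5498_643 paired at 22 of 23 bases, PC-5p-218814_17 and PC-3p-6978_511 at 20 of 21, and PC-5p-34093_106 and PC-3p-4296_805 at 18 of 19. The overhang of the 3′ end of the 3p arm is 2 bases in a typical DICER-LIKE product. Over all 66 pairs it ran from -10 to 9 bases, and 8 pairs had 2 bases. For a poorly paired pair it is only the offset of the best alignment. Among the 30 well-paired pairs, 3 had 2 bases and 10 had -5. Negative values mean that the 3p arm ends short of its partner.

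Genome places were read from the study's own hairpin list on the Fragaria vesca genome 1.0, the wild relative whose genome served as reference for the cultivated fruit. Of that list 715 of 1334 candidate entries were at hand, with 125 hairpins of 111 members on 59 scaffolds. What genes or repeats lie at these places is not analysed here. The hairpins below are shown because each holds both arms of a leading pair or a leading arm, and capitals mark the stretches that the list marks as arms. The windows are longer than the hairpins printed.
PC-3p-6978_511: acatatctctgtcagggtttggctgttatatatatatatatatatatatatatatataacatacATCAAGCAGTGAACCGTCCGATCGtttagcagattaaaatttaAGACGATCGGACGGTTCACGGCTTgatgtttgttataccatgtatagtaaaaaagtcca
PC-3p-5498_643: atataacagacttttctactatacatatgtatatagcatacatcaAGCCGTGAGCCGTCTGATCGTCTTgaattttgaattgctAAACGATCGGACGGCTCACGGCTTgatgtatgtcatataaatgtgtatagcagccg
PC-5p-8857_406: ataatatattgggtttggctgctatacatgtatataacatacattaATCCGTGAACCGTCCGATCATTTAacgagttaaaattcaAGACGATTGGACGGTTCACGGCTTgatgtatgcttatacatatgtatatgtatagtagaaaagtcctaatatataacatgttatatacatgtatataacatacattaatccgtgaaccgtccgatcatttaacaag
The first lies in the window scf0513124:841865-842128 on the plus strand, the second in scf0513124:706501-706764 on the plus strand, and the third in scf0513002:136405-136668 on the plus strand. PC-5p-8857_406 lies on the 3p side of its printed hairpin although its name says 5p. Of 94 hairpins that mark 2 stretches, this was the only one where name and side differed.

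Many members differed from the wild strawberry hairpin by 1 base. Of the 125 hairpins, 55 held the member exactly and 70 with 1 mismatch, and none had more. Of the 111 members, 49 were found exactly in a listed hairpin and 62 had 1 mismatch to every listed hairpin. PC-5p-8857_406 differed by G13T and PC-3p-4296_805 (window scf0513160:173617-173880, minus strand) by C12T, counted from 1 at the 5′ end of the member, with the base of the hairpin first. Of 64 mismatches counted, 56 were transitions, 26 lay at bases 1 to 12 and 38 at bases 13 to 24. Position 10 had the most, with 10. Exact members had more reads than mismatched ones, and their folds were close. The median raw reads over both libraries were 228 for exact members and 163 for those with 1 mismatch, and the median log2 folds were -0.09 and -0.01.

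At several places hairpins of members were listed on both strands. Windows of 40 members overlapped that of another member on the other strand, at 15 places, and in 7 such pairs the sequences were exactly complementary over at least 18 bases. The hairpin of PC-3p-6978_511 is met on the minus strand by that of PC-3p-19887_182 (window scf0513124:841864-842127), and the 2 members are complementary over 23 bases, with 650 and 636 raw reads at 0 h. PC-5p-70035_51 is met by PC-3p-15640_232 (window scf0513124:706462-706725, minus strand), complementary over all 24 bases, with 113 and 477 raw reads at 0 h. Each of these members differs by 1 base from the hairpin listed for it, C10T and G15A. Whether the reads of members came from the places listed was not tested. The strands had like levels in the first pair and unlike levels in the second. Without regard to place, 17 pairs of members, made of 23 members, were exactly complementary over at least 18 bases.

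In the degradome 1 member had a listed target. PC-3p-29513_122 is 1 of 155 members (0.645%) with a row, beside 3.02% of all candidates, 0.58% of 24 nt candidates and 44.7% of the known miRNAs. Its row names gene23708-v1.0-hybrid, annotated as Target of Myb protein 1, a name given to proteins that sort cargo in the endosomal pathway of animals. The alignment score was 3, the matched stretch ran from base 1395 to 1418 of the transcript and the cleavage site was base 1409. It rests on 1 normalized read of category 4, the weakest class, in which a single read supports the site, and the P given with it was 0.722. Category 4 held 65 of the 152 rows of the target table.

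A candidate of 21 nt, PC-3p-140510_25, had a row for the same gene at a nearby site. It matches PC-3p-29513_122 with 0 mismatches over 20 bases. Capitals mark ATGGACGG in the member, and the shorter candidate is shown in lower case for comparison.
PC-3p-29513_122: ATGGACGGtggagATGGACGGatg
PC-3p-140510_25: acggtggagatggacggatgc
Its alignment score was 4, its site was base 1405, and it too had 1 read of category 4. The P given with it was 0.949. Its raw reads were 20 before and 19 after storage, fewer than the 51 and 35 of the member. Of the 168 candidates of 21 nt, 26 had a row. Absence of a row says that no cleaved end was listed at this depth and does not bear on targets of another kind.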

How the data were processed

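Small RNA reads of 2 libraries were processed by the authors with ACGT101-miR 4.2: lengths of 15 to 32 nt were kept and mapped to miRBase 19 and the Fragaria vesca genome 1.0. The raw counts and the normalized scores (whole numbers, formula not given in the sources used here) are used as deposited. The authors called targets from the 1 degradome library with the programs CleaveLand 3.0 and ACGT301-DGE 1.0. The alignment score, category, p-value and read signal of each target are used as deposited.

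Each name was counted once. Members, letter sets and lists were chosen with earlier results of these data known. Members named are the 10 with the most reads, the 5 highest and 5 lowest folds, those past 2-fold, leaders of groups of at least 3, pairs of the 5 most-read precursors with 2 members, those with a target row, and those at the threshold. Members of the letter sets were named after their values were seen. Folds need at least 10 raw reads in 1 library. With 1 library per time no test was possible. Intervals are at the 95% level, Clopper-Pearson for shares and conditional binomial for folds. The fold intervals were run on simulated counts that held counting error only. That run checks the computation and cannot show how the intervals serve across fruits or libraries. Reads carry no molecular identifiers.

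Alternatives were raw reads, scaling by mappable reads, by the total of listed names, TMM (edgeR 4.0.16) and DESeq2 1.42.0 size factors, a pseudocount of 1, minimums of 20 or 100 reads or of 50 in both libraries, 2 or 4 mismatches, 1 strand only, and P under 0.05. Python 3.11.15 (numpy 2.4.6, pandas 2.3.3, scipy 1.17.1, matplotlib 3.10.9) and R 4.3.3 were used. Hairpins and positions come from the study's hairpin list. Target gene identifiers are those of the Fragaria vesca 1.0 gene set to which the authors mapped the degradome.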

Additional observations from a re-analysis of the deposited data

How the results depend on the processing

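With 1 library per storage time no library could be left out. No paired analysis was possible because each storage time has 1 library. Raw reads with no scaling moved log2 folds by 0.115 and scaling by the total of listed names by 0.119, against 0.002 to 0.019 for mappable reads, DESeq2 size factors and TMM. Under both of the former, 2 members were past 2-fold, both higher, in place of 1 lower, and the median log2 fold was 0.050 and 0.053 in place of -0.061. A minimum of 20 raw reads gave 7 members past 2-fold, and 0 were past it with a minimum of 100, with 50 in both libraries or with an interval wholly beyond 2-fold. With a minimum of 20, 100 or 50 in both, the members held 0.917%, 0.583% and 0.711% of listed reads at 0 h and 0.950%, 0.599% and 0.730% at 24 h. The 9 sequence groups became 16, 3 and 5. With a minimum of 100 the largest group had 42 members in place of 71, and 44 members had a partner in place of 80. The target row was lost with a minimum of 100, with 50 in both and with P under 0.05 (0 rows each). Of the 38 members named by rule, 10 changed direction under each of those 2 scalings, among them PC-5p-8857_406, PC-3p-6978_511 and PC-5p-17917_203. PC-3p-148688_24, PC-3p-168882_21 and PC-3p-32705_110 changed side of 2-fold under both. Under mappable reads, TMM, DESeq2 size factors and the pseudocount 0 of the 38 changed either. Each of these moves was within the member's counting interval. All other alternatives left the counts within 1.5 times. For members near 50 reads, counting error limits a fold.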

Other observations

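Sequences like those of the members also occurred outside the set. Of the 74 abundant 24 nt candidates with another first base, 45 were within 3 mismatches of a member over at least 18 bases, 7 of them in the group led by PC-5p-8857_406. Of the 361 candidates with adenine first and fewer than 50 raw reads, 175 were.

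Candidates of other lengths were related as well. Of 348 with at least 10 raw reads, 94 were within 3 mismatches of a member, of which 55 had 23 nt, 20 had 21 nt and 13 had 22 nt. The 55 of 23 nt summed to 2376 raw reads before and 2424 after storage, with a median log2 fold of -0.05, and the 20 of 21 nt summed to 935 and 1094, with a median of 0.13 and 15 of 20 above 0. The most abundant, PC-5p-13611_266 of 21 nt, had 283 and 343 raw reads, a fold of 1.12 (0.953 to 1.31), and is also listed as the 5p partner of PC-3p-4594_757 on its other precursor.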
